A study of Mus musculus with 26 samples.

Results

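A set of 7 potassium channel genes was followed through thymocyte positive selection: *Kcna2*, *Kcna3*, *Kcnab2*, *Kcnn4*, *Kcnh2*, *Kcnh3* and *Kcnd2*. They are 7 of the 46517 gene symbols in the table, and all 7 passed the filter on low values that 16372 symbols passed. Most of them were chosen mainly by their difference in RNA between OT-1 and TG6 thymocytes in these same libraries. For that reason their levels in the 3 lines are given below as a description without a test. *Kcna2* was also singled out by the study for a peak at the later stages, so its change between stages is described and no p-value is given for it.

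RNA was sequenced from thymocytes of 3 mouse lines, each carrying a transgenic T cell receptor restricted to MHC class I. TG6 (H2b/d, C57/BL6 x B6.C-H2d/bByJ) has low self-reactivity, F5 (Rag1KO, C57/BL6) is intermediate, and OT-1 (Rag2KO, C57/BL6) has high self-reactivity. The mice were 3 to 10 weeks old. The populations of 3 stages were sorted from each line by surface staining. Cells at the early stage of positive selection carried CD4, CD8 and CXCR4 but not CCR7, cells at the late stage carried CD4, CD8 and CCR7 but not CXCR4, and mature CD8SP cells carried CD8 and CCR7 and neither CD4 nor CXCR4. Each of the 9 groups had 3 libraries except TG6 late, which had 2, giving 26 in all. The receptor, the MHC type and the Rag genotype change together between lines, so their parts in a difference between lines cannot be told apart. The labels give a Rag knockout for F5 and OT-1 and none for TG6, so that a single receptor per cell is not established in TG6.

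Potassium channels let potassium ions leave the cell and so hold the membrane potential negative. In T cells this keeps up the electrical drive for calcium entry after the T cell receptor is engaged. The best known pair in T cells is the voltage-gated channel Kv1.3, encoded by *Kcna3*, and the calcium-activated channel KCa3.1, encoded by *Kcnn4*. Kv1.2, encoded by *Kcna2*, is of the same subfamily as Kv1.3 and is best known from neurons. *Kcnab2* encodes a cytoplasmic beta subunit that binds Kv1 channels. *Kcnh2* and *Kcnh3* encode channels of the ether-a-go-go family, the former being the hERG channel of the heart. *Kcnd2* encodes Kv4.2, an A-type channel of neurons.

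The genes lie on 6 chromosomes in GRCm38 (GENCODE vM21). *Kcna3* (chr3:107036169-107038070, plus strand) and *Kcna2* (chr3:107101146-107115005, plus strand) are neighbours, with 63075 bases between them. The others are *Kcnab2* (chr4:152390742-152477871, minus strand), *Kcnh2* (chr5:24319589-24351604, minus strand), *Kcnd2* (chr6:21215503-21729805, plus strand), *Kcnn4* (chr7:24370263-24386690, plus strand) and *Kcnh3* (chr15:99224861-99242817, plus strand). The strand setting of the library is not given in the sources used here. *Kcnh3* shared 1 exonic base with the abundant gene *Mcrs1* on the other strand, and *Kcnab2* shared 125 exonic bases with Gm16334, which was at most 6.88 normalized counts in any library. The annotated genes that overlap *Kcna3*, *Kcnh2* and *Kcnd2* shared no exonic base with them.

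Promoter sequence from RefSeq (GRCm38.p6) was found for 6 of the 7 genes. Only *Kcna3*, *Kcnd2* and *Kcnn4* have a single RefSeq window that lies before the annotated gene and outside its exons, and these are shown because *Kcna3* and *Kcnn4* encode the pair of channels best known in T cells and *Kcnd2* was detected in 1 line. Each is the 250 bases before the RefSeq start, 5′ to 3′ on the strand of the gene: *Kcna3* at chr3:107035912-107036161, *Kcnd2* at chr6:21215096-21215345 and *Kcnn4* at chr7:24370013-24370262. Capitals mark the letters GGAAA, the core bound by NFAT factors, and TGTGGT, the core bound by RUNX factors, on either strand.
Kcna3: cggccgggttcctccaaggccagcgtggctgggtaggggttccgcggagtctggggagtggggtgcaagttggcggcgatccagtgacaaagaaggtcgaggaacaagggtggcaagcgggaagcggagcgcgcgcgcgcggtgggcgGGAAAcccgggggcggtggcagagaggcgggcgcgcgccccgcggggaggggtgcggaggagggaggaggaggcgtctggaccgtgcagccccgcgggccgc
Kcnd2: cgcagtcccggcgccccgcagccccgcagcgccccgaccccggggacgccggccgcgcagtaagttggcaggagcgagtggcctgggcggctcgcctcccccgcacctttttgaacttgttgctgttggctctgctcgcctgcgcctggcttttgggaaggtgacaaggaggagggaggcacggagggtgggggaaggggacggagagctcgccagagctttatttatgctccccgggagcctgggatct
Kcnn4: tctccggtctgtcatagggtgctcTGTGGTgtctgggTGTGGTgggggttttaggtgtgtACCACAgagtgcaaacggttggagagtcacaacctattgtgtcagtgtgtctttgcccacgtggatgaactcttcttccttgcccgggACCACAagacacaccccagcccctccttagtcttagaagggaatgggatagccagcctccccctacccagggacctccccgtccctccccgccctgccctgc

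The *Kcnn4* window held 4 matches to TGTGGT, and the *Kcna3* and *Kcnd2* windows held 0. Of all 32851 RefSeq windows of this length, 14.0% held at least 1 such match. GGAAA was found once in the *Kcna3* window and not in the other 2, against 55.6% of all windows with a match. The E-box letters CANNTG, bound by E proteins, were found once before *Kcnn4* and not before *Kcna3* or *Kcnd2*, against 66.2% of all windows. No match overlapped another in these 3 windows. A match describes letters in the window and does not show that a factor binds there.

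The values are normalized counts as deposited, and they summed to 16134786 to 18944173 per library. Mean *Cd4* was 22112.8, 13537.5 and 8026.2 in the early groups of TG6, F5 and OT-1 and 222.1, 259.0 and 153.4 in their mature CD8SP groups, and mean *Ccr7* went from 147.1, 198.4 and 779.2 to 12058.0, 6864.6 and 10183.7. The 8 double-positive genes summed to 165267.4 to 179850.4 in TG6 early, 94651.1 to 114611.3 in F5 early and 49172.3 to 63811.2 in OT-1 early. Their sums in late and mature CD8SP cells were 44523.5 to 49535.7 and 50306.5 to 56778.3 in TG6. In F5 they were 42460.9 to 59677.3 and 45790.4 to 60732.8, and in OT-1 23781.7 to 30042.4 and 33988.7 to 38977.5. In TG6 and OT-1 the mature sums lay above the late ones. Mean *Cxcr4* was 5160.7, 1078.5 and 1928.1 at the early, late and mature CD8SP stages of TG6 and 3504.8, 1701.2 and 2674.0 in F5, but in OT-1 it was 2021.6, 845.8 and 2159.8, so its RNA was not lower in the mature cells sorted as CXCR4-. The 7 mature CD8 genes, *Ccr7* among them, summed to 58664.4 to 66022.5 in TG6 early and 55227.9 to 58810.1 in TG6 late. In F5 they were at 52144.8 to 55116.8 and 49222.7 to 53818.4, and in OT-1 at 34501.6 to 40984.6 and 57201.5 to 62350.6. Only in OT-1 did the late sums lie above the early ones. The mature CD8SP sums were 68255.3 to 89171.2, 64722.5 to 85189.2 and 70186.8 to 84795.3 in TG6, F5 and OT-1. Of the marker lists of other cell types, all 7 macrophage genes together gave at most 319.8 in a library, all 5 dendritic cell genes 259.0, all 6 thymic epithelial genes 77.6 and all 4 NK cell genes 26.2, with *Ncr1* listed at 0 in every library. The 6 erythroid genes summed to 33.9 to 1280.5. The 6 B cell genes summed to 2795.0 to 10396.5, of which *Ighm*, at a mean of 7390.3 in TG6 early, made up most. The 10 genes of dividing cells summed to 40455.7 to 84886.9 in the early groups and 440.7 to 7361.5 in the late groups. Replicate 3 of OT-1 was at 1280.5 early, 1102.2 late and 1165.0 mature for the erythroid genes, against 69.1 to 417.4 in replicates 1 and 2, and F5 early replicate 2 was at 682.1. The part of these cells in the potassium channel values was not tested. No stage call of the 7 genes in OT-1 changed when any 1 of its replicate 3 libraries was left out. For dividing genes, libraries of 2 groups stood apart from their replicates. TG6 mature CD8SP replicate 3 was at 60320.6 for dividing genes, against 15439.5 and 16875.4 in replicates 1 and 2. That library was also lower for the 7 mature CD8 genes, at 68255.3 against 89169.4 and 89171.2. F5 late replicate 2 was at 7361.5, against 440.7 and 455.4 in replicates 1 and 3. F5 mature CD8SP ranged from 16842.2 to 47940.7 and OT-1 mature CD8SP from 65348.8 to 74629.4. The part of cell division in the potassium channel values was not tested.

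*Kcna2* RNA was higher at the late than at the early stage in each line, and it spanned the widest range of the 6 genes that were detected in all groups, 19.3-fold between the highest and lowest group means. In TG6 it was at 610.2, 618.5 and 629.8 in the early libraries, 3873.3 and 3653.6 in the late libraries, and 3202.2, 3034.0 and 1221.9 in the mature CD8SP libraries. In F5 it was at 411.8, 447.6 and 519.5, then 931.4, 1425.9 and 1395.9, then 1362.7, 1567.5 and 1916.9. In OT-1 it was at 223.0, 127.2 and 234.3, then 578.4, 469.9 and 611.7, then 501.2, 448.5 and 523.2. Within each line no late library overlapped an early one. The log2 change from early to late on the log2(value + 1) scale was 2.60 ± 0.30 (SE) in TG6, 1.42 ± 0.27 in F5 and 1.54 ± 0.27 in OT-1. From early to mature CD8SP it was 1.88 ± 0.27, 1.80 ± 0.27 and 1.38 ± 0.27.

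TG6 mature CD8SP replicate 3, the library with high dividing genes, held less *Kcna2* than replicates 1 and 2, which lay above every F5 and OT-1 library. Without it the TG6 change from early to mature CD8SP was 2.33 in place of 1.88, and the change from late to mature CD8SP was -0.27 in place of -0.72. By group mean the order ran from TG6 late (3763.4 ± 155.4, SD, n = 2) through TG6 mature CD8SP (2486.0 ± 1098, n = 3), F5 mature CD8SP (1615.7 ± 280.3), F5 late (1251.1 ± 277.2), TG6 early (619.5 ± 9.87), OT-1 late (553.3 ± 74.1), OT-1 mature CD8SP (491.0 ± 38.4) and F5 early (459.6 ± 54.9) to OT-1 early (194.8 ± 58.8). Neighbours in this order overlapped except at 3 steps: TG6 late lay above TG6 mature CD8SP, F5 late above TG6 early, and F5 early above OT-1 early.

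**Figure D1:**
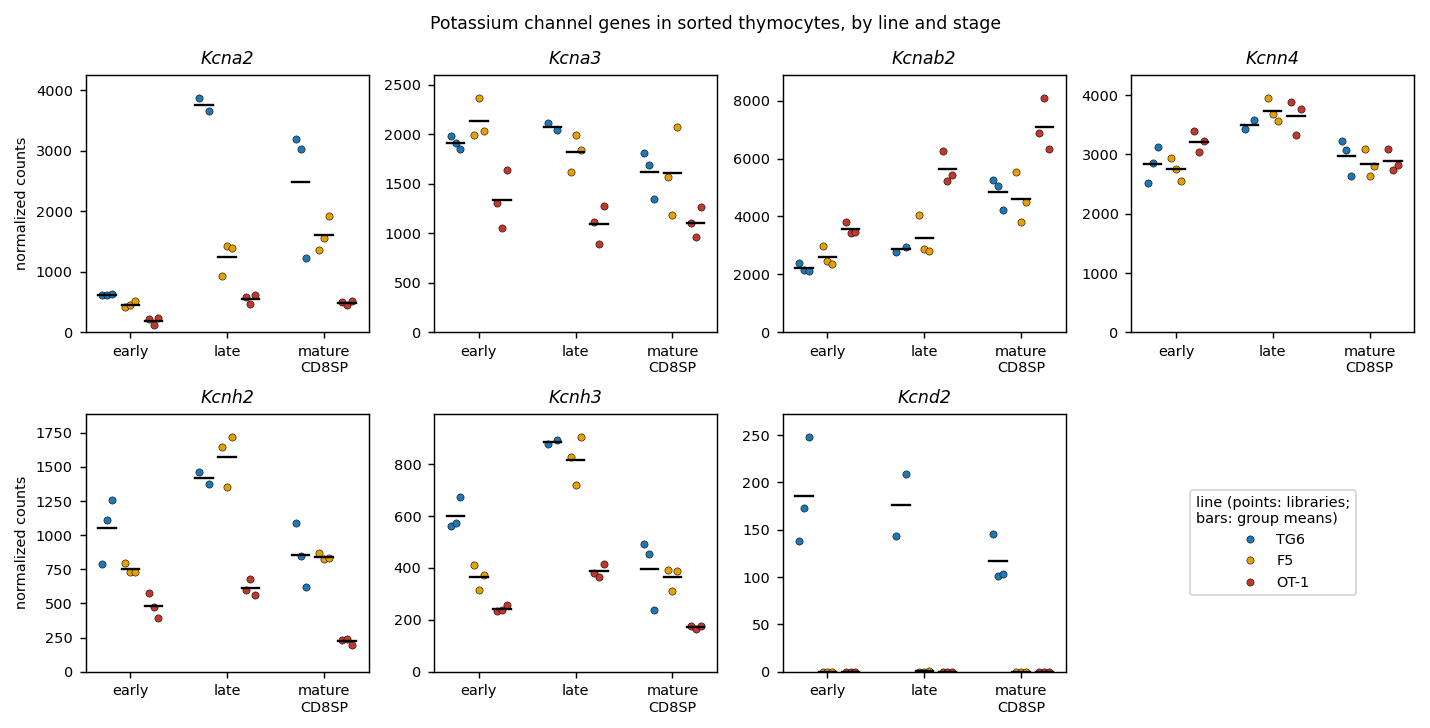
Normalized counts of the 7 potassium channel genes (linear vertical axes from 0) in each of the 26 libraries by stage, with 1 point per library coloured by line and a bar at each group mean. *Kcna2* was highest in TG6 late, where the libraries held 3873.3 and 3653.6, *Kcnab2* was highest in OT-1 mature CD8SP, and *Kcnd2* was at least 100.6 in every TG6 library and at most 1.02 elsewhere.

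*Kcna3*, which encodes Kv1.3, varied far less, with 1.95-fold between its highest and lowest group means. The TG6 libraries held 1980.3, 1915.3 and 1851.3 at the early stage, 2111.3 and 2037.7 at the late stage, and 1814.7, 1689.0 and 1343.4 at the mature CD8SP stage. The F5 libraries held 1994.3, 2365.5 and 2035.5, then 1615.5, 1993.5 and 1839.2, then 1564.9, 1181.2 and 2073.7. The OT-1 libraries held 1308.0, 1053.3 and 1639.7, then 1112.7, 891.8 and 1279.5, then 1099.5, 961.5 and 1262.4. At each stage every OT-1 library lay below every TG6 library, while F5 mature CD8SP overlapped both other lines.

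No stage change of *Kcna3* passed the test in any line (limma with Benjamini-Hochberg adjustment over all 16372 genes, here and below, called under 0.05). The largest was the log2 change of -0.44 ± 0.18 (SE) from early to mature CD8SP in F5, at an adjusted p of 0.095. With the mouse as a replicate block that change was called at an adjusted p of 0.0265, and without F5 mature CD8SP replicate 3 it was -0.64 at an adjusted p of 0.0168. Over all its alternatives the adjusted p ran from 0.0168 to 0.401, and leaving out 1 library gave changes from -0.64 to -0.24. The changes over the same interval were -0.26 ± 0.18 in TG6 (adjusted p = 0.30) and -0.25 ± 0.18 in OT-1 (adjusted p = 0.36). In OT-1 the change ran from -0.41 to -0.09 when 1 library was left out. Without TG6 mature CD8SP replicate 3 the TG6 change was -0.13. The means ran in order from F5 early (2131.8 ± 203.5, SD, n = 3) through TG6 late (2074.5 ± 52.0, n = 2) and TG6 early (1915.6 ± 64.5, n = 3) down to OT-1 early (1333.6 ± 294.0), OT-1 mature CD8SP (1107.8 ± 150.7) and OT-1 late (1094.7 ± 194.5). Only TG6 late and TG6 early, among neighbours in the order of all 9 groups, did not overlap.

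*Kcnab2*, the beta subunit gene, rose towards the mature CD8SP stage in all 3 lines. TG6 libraries were at 2406.6, 2161.9 and 2130.7 early, 2765.0 and 2958.9 late, and 5266.6, 5035.8 and 4238.6 mature. F5 libraries were at 2982.0, 2456.1 and 2364.3, then 4038.5, 2884.4 and 2825.3, then 5531.8, 3817.9 and 4484.3. OT-1 libraries were at 3813.7, 3442.6 and 3475.3, then 6259.1, 5225.7 and 5435.1, then 6879.0, 8088.6 and 6333.6. In every line all mature libraries lay above all early libraries. OT-1 was the highest line at each stage, with no overlap with TG6 or F5.

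From early to mature CD8SP the log2 change of *Kcnab2* was 1.11 ± 0.14 in TG6 (adjusted p = 1.7e-06), 0.82 ± 0.14 in F5 (adjusted p = 0.00021) and 0.98 ± 0.14 in OT-1 (adjusted p = 2.1e-05). A difference between lines in the step at which it rose was not tested. In OT-1 it rose from early to late (0.65 ± 0.14, adjusted p = 0.0016), in TG6 from late to mature CD8SP (0.75 ± 0.16, adjusted p = 0.0015), and in F5 from late to mature CD8SP (0.51 ± 0.14, adjusted p = 0.013). The F5 call was lost without F5 late replicate 2 or 3 or without F5 mature CD8SP replicate 1, with adjusted p of 0.0676, 0.0815 and 0.0852, and in a fit of only the groups compared (adjusted p = 0.133). Without TG6 mature CD8SP replicate 3 the TG6 changes were 0.85 from late to mature CD8SP and 1.21 from early to mature CD8SP, both called. With the mouse as a replicate block 2 further steps were called, F5 early to late (0.31, adjusted p = 0.0144) and OT-1 late to mature CD8SP (0.33, adjusted p = 0.0106). Over all alternatives these adjusted p ran from 0.0144 to 0.508 and from 0.0106 to 0.32. The step from early to late in TG6 was at an adjusted p of 0.0496 with the block, but the titles of the TG6 late libraries differ in form from the others, and their same-number pairs correlated at 0.023 to 0.0507, so pairing is not established there. Its adjusted p ran from 0.014 to 0.375.

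*Kcnn4*, which encodes KCa3.1, had the narrowest range of the 6 genes detected in all groups, with 1.36-fold between its highest and lowest group means. The early, late and mature CD8SP libraries of TG6 held 2523.6, 2849.5 and 3131.6, then 3420.0 and 3578.1, then 3218.4, 3077.1 and 2627.7. Those of F5 held 2937.4, 2750.4 and 2552.0, then 3951.0, 3688.8 and 3559.2, then 3090.5, 2643.2 and 2805.0. Those of OT-1 held 3390.3, 3039.4 and 3221.2, then 3878.3, 3322.3 and 3757.3, then 3085.5, 2742.4 and 2819.8. In each line the late stage had the highest mean, and in TG6 and F5 no late library overlapped an early or mature one.

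*Kcnn4* rose from early to late in F5 by 0.44 ± 0.10 on the log2 scale (adjusted p = 0.0013) and in TG6 by 0.31 ± 0.11 (adjusted p = 0.037), while the OT-1 change was 0.18 ± 0.10 (adjusted p = 0.17). It fell from late to mature CD8SP in F5 (-0.39 ± 0.10, adjusted p = 0.005) and in OT-1 (-0.34 ± 0.10, adjusted p = 0.013), and the TG6 change was -0.24 ± 0.11 (adjusted p = 0.12; 0.0198 with total scaling). The TG6 rise was lost under 7 of its 14 alternatives, among them the fits without TG6 early replicate 1 or 2 and without TG6 late replicate 1 or 2, and its adjusted p ran from 0.0181 to 0.209. The F5 fall was lost in a fit of only the groups compared (adjusted p = 0.0579). The OT-1 fall was lost without OT-1 late replicate 1 (adjusted p = 0.0626) or when OT-1 mature CD8SP replicate 2 was left out (adjusted p = 0.0543). From early to mature CD8SP no line passed the test, with changes of 0.07, 0.05 and -0.16 in TG6, F5 and OT-1. Without TG6 mature CD8SP replicate 3 the TG6 change was 0.16 over that interval and -0.15 from late to mature CD8SP, neither called.

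*Kcnh2* and *Kcnh3*, the ether-a-go-go family genes, had their highest mean at the late stage in each line, and at each stage their lowest mean in OT-1. *Kcnh2* was at 789.2, 1110.3 and 1261.0 in TG6 early, 1466.1 and 1375.3 in TG6 late, and 1087.8, 850.9 and 617.5 in TG6 mature CD8SP. In F5 it was at 795.6, 727.3 and 732.8, then 1646.2, 1355.4 and 1716.8, then 866.5, 828.1 and 831.4. In OT-1 it was at 572.8, 472.6 and 394.6, then 599.7, 675.8 and 563.7, then 233.0, 237.0 and 196.4. The 3 OT-1 mature libraries lay below every other library in the series.

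*Kcnh2* rose from early to late in F5 by 1.06 ± 0.18 on the log2 scale (adjusted p = 0.00012), whereas the changes in TG6 (0.46 ± 0.20, adjusted p = 0.10; 0.0467 without TG6 early replicate 3) and OT-1 (0.36 ± 0.18, adjusted p = 0.14) were not called. Leaving out 1 library gave 0.26 to 0.60 in TG6 and 0.23 to 0.50 in OT-1. *Kcnh2* fell from late to mature CD8SP in all 3 lines, by 0.77 ± 0.20 in TG6 (adjusted p = 0.0072), 0.89 ± 0.18 in F5 (adjusted p = 0.00087) and 1.46 ± 0.18 in OT-1 (adjusted p = 8.6e-06). The TG6 fall was not called without TG6 late replicate 1, at an adjusted p of 0.0704, or in a fit of only the groups compared (adjusted p = 0.13), and was -0.56 at an adjusted p of 0.0439 without mature CD8SP replicate 3. Over early to mature CD8SP *Kcnh2* fell in OT-1 (-1.10 ± 0.18, adjusted p = 8.1e-05), with -0.32 ± 0.18 in TG6 (adjusted p = 0.18) and 0.16 ± 0.18 in F5 (adjusted p = 0.60). The TG6 change was called without TG6 early replicate 1 (adjusted p = 0.0366) or TG6 mature CD8SP replicate 1 (adjusted p = 0.0345), with a range of 0.0345 to 0.699 over all alternatives, and was -0.10 without TG6 mature CD8SP replicate 3. A difference between lines in this change was not tested. The fold between its highest and lowest group means was 7.08.

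*Kcnh3* was at 561.1, 573.5 and 671.6 in TG6 early, 879.0 and 893.5 in TG6 late, and 490.8, 455.3 and 237.7 in TG6 mature CD8SP. F5 had 410.2, 316.2 and 372.7, then 829.2, 719.7 and 903.8, then 392.2, 310.9 and 389.2. OT-1 had 233.8, 238.0 and 258.3, then 380.9, 366.4 and 416.7, then 174.8, 166.0 and 176.7. In each line every late library lay above every early and every mature library.

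From early to late *Kcnh3* rose in F5 by 1.16 ± 0.19 (adjusted p = 6.8e-05) and in OT-1 by 0.67 ± 0.19 (adjusted p = 0.01), and the TG6 change of 0.56 ± 0.21 had an adjusted p of 0.052. The TG6 change was called with a filter at a mean of 50 (adjusted p = 0.0423), with quantile normalization (adjusted p = 0.0497) and in a fit of only the groups compared (adjusted p = 0.00763), and its adjusted p ran up to 0.197. From late to mature CD8SP it fell in each line, with log2 changes of -1.23 ± 0.21 in TG6 (adjusted p = 0.00018), -1.17 ± 0.19 in F5 (adjusted p = 9.7e-05) and -1.16 ± 0.19 in OT-1 (adjusted p = 0.00012). Without TG6 mature CD8SP replicate 3 the TG6 fall was -0.91, still called, but in a fit of only the groups compared it was not called (adjusted p = 0.0899). Over the whole course from early to mature CD8SP it fell in TG6 (-0.67 ± 0.19, adjusted p = 0.0067), but without TG6 mature CD8SP replicate 3 that change was -0.34 at an adjusted p of 0.0474, and in a fit of only the groups compared it was not called (adjusted p = 0.123). In OT-1 the change was -0.49 ± 0.19 (adjusted p = 0.061), called with the mouse as a replicate block at an adjusted p of 0.0343, and over all alternatives the adjusted p ran from 0.0235 to 0.155. In F5 it was -0.01 ± 0.19. Across the 26 libraries log2 *Kcnh2* and *Kcnh3* had a Pearson r of 0.93, a description over libraries that share line, stage and normalization.

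*Kcnd2*, the A-type channel gene, was detected in TG6 and was near 0 in the other 2 lines. TG6 held 137.6, 172.9 and 247.7 at the early stage, 142.9 and 208.4 at the late stage, and 145.4, 100.6 and 103.6 at the mature CD8SP stage. It was listed at 0 in 17 of the 18 F5 and OT-1 libraries, and F5 late replicate 3 held 1.02. No fold is given against groups at 0. Within TG6 the stage groups overlapped, and no stage change was called (early to mature CD8SP -0.65 ± 0.37, adjusted p = 0.19, and -0.58 without mature CD8SP replicate 3). That change was called with a pseudocount of 5 (adjusted p = 0.0292) and without a trend in the prior variance (adjusted p = 0.0338), and over its alternatives the adjusted p ran from 0.0292 to 0.598. Leaving out 1 library gave changes from -0.84 to -0.42. Of the 9 other genes in the table within 1 Mb of *Kcnd2*, 3 passed the filter, and none of these had all TG6 libraries above or all below the rest. TG6 differs from the other lines in its MHC-congenic background, in its receptor and in having no Rag knockout in its label.

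The calls between stages are counted over the genes other than *Kcna2*, whose stage profile took part in its choice. From early to late, 3 of the 5 other genes above the floor rose in F5, which took no part in the OT-1 against TG6 comparison: *Kcnh2*, *Kcnh3* and *Kcnn4*. Of all genes tested from early to late in F5, 12.7% were called higher and 14.0% lower. With the mouse as a replicate block the rise of *Kcnab2* was also called in F5 (0.31, adjusted p = 0.0144). In OT-1, 2 of 5 rose (*Kcnab2* and *Kcnh3*), where 12.7% of all genes were called higher and 14.0% lower, and in TG6, 1 of 6 rose (*Kcnn4*), where 12.1% were called higher and 13.3% lower. None of these genes fell at this step in limma; at an unadjusted p under 0.05, 4 changed in TG6, 4 in F5 and 2 in OT-1, all of them upwards. The median log2 change over these genes was 0.33 in TG6, 0.44 in F5 and 0.36 in OT-1, beside medians over all genes of 0, 0.04 and 0.02. Without OT-1 early replicate 3 the OT-1 median was 0.23. Without F5 late replicate 2, the library with high dividing genes, the F5 changes were 1.16 for *Kcnh2*, 1.25 for *Kcnh3* and 0.45 for *Kcnn4*, all called.

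From late to mature CD8SP, *Kcnh2*, *Kcnh3* and *Kcnn4* fell in F5 and *Kcnab2* rose, against 8.31% of all genes called lower and 12.2% higher. Without F5 late replicate 2 the same 3 falls were called and the rise of *Kcnab2* was not. In OT-1 *Kcnh2*, *Kcnh3* and *Kcnn4* fell, where 10.4% of all genes were called lower and 14.0% higher. In TG6, *Kcnh2* and *Kcnh3* fell and *Kcnab2* rose, against 7.79% lower and 14.5% higher. The medians were -0.48 in TG6, -0.39 in F5 and -0.34 in OT-1, beside 0, -0.01 and -0.03 over all genes. Over early to mature CD8SP, *Kcnab2* rose in every line, with 19.4% of all genes called higher in TG6, 10.8% in F5 and 12.8% in OT-1. *Kcnh3* fell in TG6 and *Kcnh2* in OT-1, with 15.2% of all genes called lower in TG6, 10.5% in OT-1 and, in F5, 8.79%. In F5 limma called 0 falls over this interval, and 1 gene, *Kcna3*, was lower at an unadjusted p under 0.05. With the mouse as a replicate block that fall was called (adjusted p = 0.0265), making 1. The medians over early to mature CD8SP were -0.29, 0.05 and -0.25 in TG6, F5 and OT-1, beside -0.03, -0.01 and -0.01 over all genes. The TG6 median was -0.12 without TG6 mature CD8SP replicate 3. The F5 median was -0.01 without F5 mature CD8SP replicate 1, and without F5 early replicate 1, F5 early replicate 3 or F5 mature CD8SP replicate 2 it was 0.10, 0.01 and 0.10. It was 0.03 with total scaling. The OT-1 median was -0.41 without OT-1 early replicate 2, -0.16 without OT-1 early replicate 3 and -0.15 without OT-1 mature CD8SP replicate 2. TG6 and OT-1 libraries took part in the choice of these genes, so their counts are not independent of it. From late to mature CD8SP in TG6, scaling each library to the same total moved the median of all genes by -0.11 on the log2 scale and quantile normalization by -0.10. Neither changed the direction of a call among these genes.

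**Figure D2:**
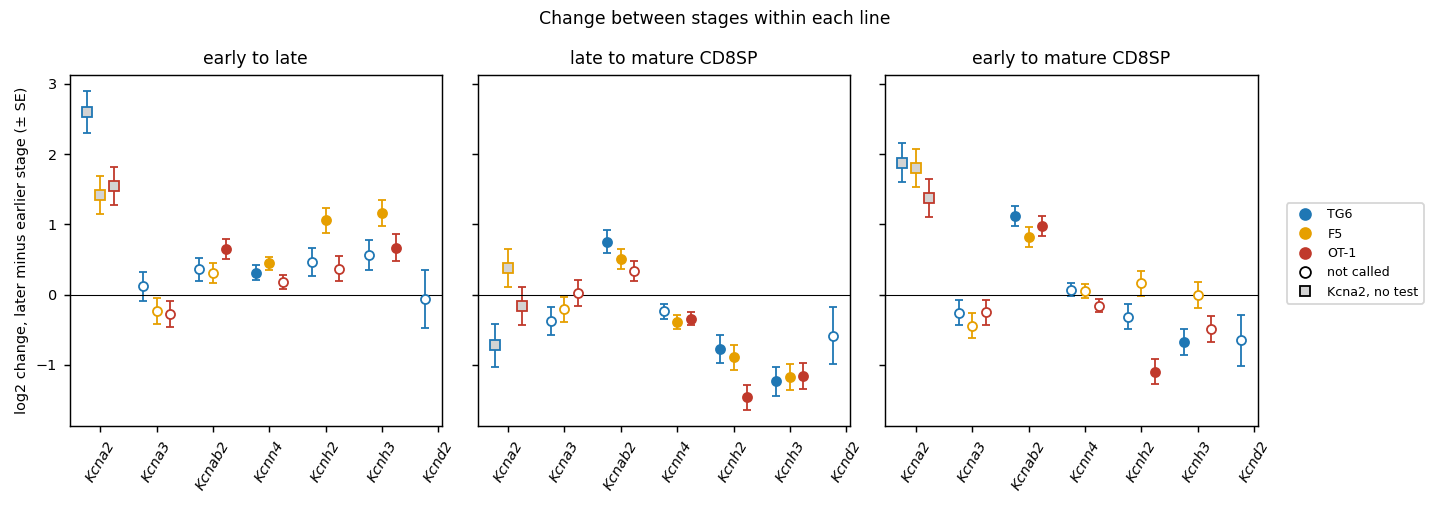
Log2 change of each gene between stages (vertical axis, later minus earlier stage of log2(value + 1), with SE) in TG6, F5 and OT-1, in 3 panels for early to late, late to mature CD8SP and early to mature CD8SP. Filled circles passed the adjusted threshold and open circles did not, grey squares show *Kcna2* as a description, and *Kcnh3* sits between -1.23 and -1.16 in all lines from late to mature CD8SP.

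Between lines, levels are described only. Of the 7 genes, 6 did not overlap between OT-1 and TG6 at the early, late and mature CD8SP stages, *Kcnab2* being higher in OT-1 and *Kcna2*, *Kcna3*, *Kcnd2*, *Kcnh2* and *Kcnh3* lower. Of all genes tested, 46.7%, 52.1% and 21.7% did not overlap in those comparisons. Because the genes were chosen on that contrast, nothing is read from the count. Fewer cells that hold a transcript and less of it per cell cannot be told apart in these bulk libraries. *Kcnn4* overlapped between OT-1 and TG6 at each stage, with differences of 0.19, 0.06 and -0.04 on the log2 scale, and the late value was -0.08 with total scaling. Leaving out 1 library gave 0.105 to 0.261 early, 0.014 to 0.126 late and -0.128 to 0.018 in mature CD8SP.

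Of the genes detected in every group, *Kcna2* differed most between OT-1 and TG6, by -1.71 early, -2.77 late and -2.22 mature CD8SP (difference of mean log2(value + 1), OT-1 minus TG6). *Kcnh2* differed by -1.12, -1.21 and -1.90, and *Kcnh3* by -1.30, -1.19 and -1.12. *Kcna3* differed by -0.55, -0.94 and -0.54, and *Kcnab2* by 0.68, 0.97 and 0.55. Without TG6 mature CD8SP replicate 3 the mature differences were -2.67 for *Kcna2*, -2.12 for *Kcnh2*, -1.45 for *Kcnh3*, -0.67 for *Kcna3* and 0.46 for *Kcnab2*. Scaling to the same total moved the median of all genes by -0.11 at the early stage and -0.13 at the late stage of this comparison, and no gene among these 5 changed direction.

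The comparisons of F5 share the libraries of the chosen contrast on 1 side, so nothing is read from their counts. The study also filtered gene sets by the order of the 3 lines, with *Kcna2*, *Kcna3*, *Kcnh2* and *Kcnh3* among the genes behind them. Between OT-1 and F5, 6 of the 6 genes above the floor of 3 normalized counts did not overlap at the early stage, 5 of 6 at the late stage and 4 of 6 at the mature CD8SP stage, against 36.1%, 36.6% and 38.7% of all genes. *Kcnh2* had log2 differences (OT-1 minus F5) of -0.66, -1.35 and -1.92 at the successive stages, and *Kcna2* had differences of -1.28, -1.16 and -1.71. Between F5 and TG6, 4, 3 and 1 of 7 did not overlap, against 31.2%, 33.3% and 16.9% of all genes. *Kcnd2* was in all 3 of these counts, but it passed the filter through TG6 alone and so had to differ. Without it the counts were 3, 2 and 0 of 6. *Kcna2* was in the early and late ones, with log2 differences (F5 minus TG6) of -0.44 and -1.61. *Kcna3* was higher in F5 than in TG6 at the early stage (0.15) and lower at the late stage (-0.20). Leaving out 1 library gave 0.073 to 0.196 early and -0.267 to -0.115 late. Without TG6 mature CD8SP replicate 3 the mature count was 3 in place of 1 with *Kcnd2* included, and without F5 late replicate 3 or TG6 late replicate 2 the late count was 5 in place of 3.

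**Figure D3:**
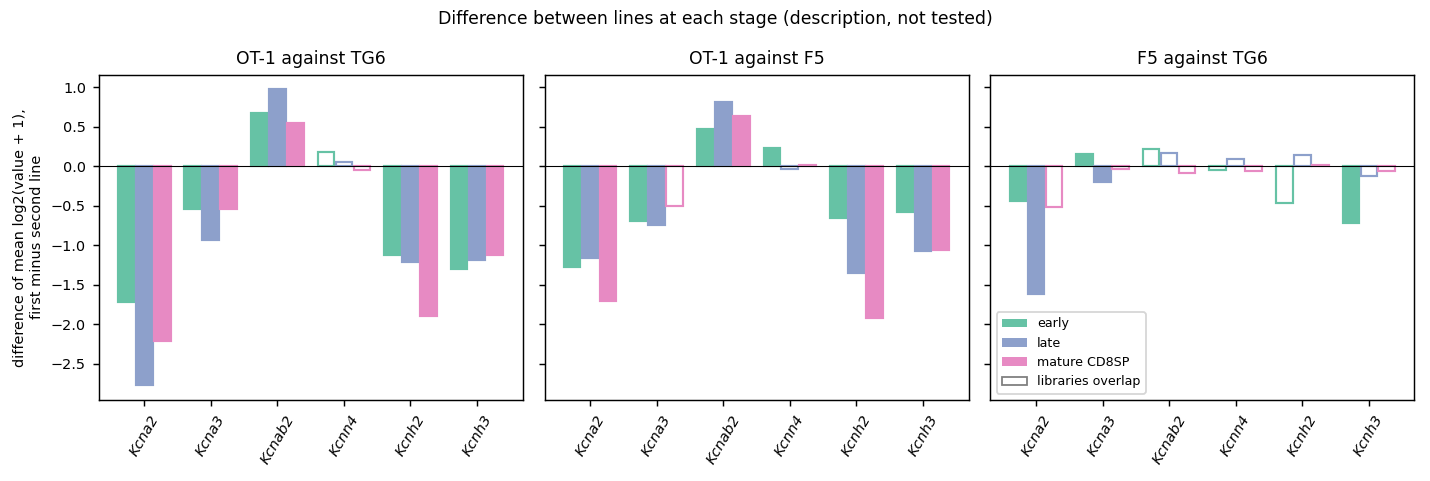
Difference of mean log2(value + 1) between lines (vertical axis, first minus second line) for 6 genes at the early, late and mature CD8SP stages, with *Kcnd2* left out because 2 lines are at 0. Filled bars are groups whose libraries did not overlap, open bars overlapped, and apart from *Kcna2* and early *Kcnh2* and *Kcnh3* the differences of F5 from TG6 lie between -0.20 and 0.21.

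Ratios of 2 of the genes within a library do not depend on how libraries were scaled. The share of *Kcna2* in the sum of *Kcna2* and *Kcna3*, in normalized counts and not per length, was 24.4% ± 0.92 (SD, n = 3) in TG6 early, 64.5% ± 0.37 (n = 2) in TG6 late and 58.6% ± 9.47 (n = 3) in TG6 mature CD8SP. In F5 it was 17.8% ± 2.29, 40.5% ± 3.46 and 50.5% ± 5.67, and in OT-1 12.6% ± 1.90, 33.7% ± 1.17 and 30.8% ± 1.33 (n = 3 each). Every late and mature library had a higher share than every early library of any line. The lowest TG6 mature share, 47.6%, was that of the library with high dividing genes.

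The ratio of *Kcna3* to *Kcnn4* was 0.68 ± 0.10 in TG6 early, 0.59 ± 0.03 in TG6 late and 0.54 ± 0.03 in TG6 mature CD8SP. It was 0.78 ± 0.09, 0.49 ± 0.07 and 0.56 ± 0.15 in F5. OT-1 had the lowest means, 0.41 ± 0.08, 0.30 ± 0.04 and 0.38 ± 0.05, although its highest mature library (0.448) reached the lowest of F5 (0.447). The ratio of *Kcnh2* to *Kcnh3* was 1.74 ± 0.29, 1.60 ± 0.09 and 2.23 ± 0.36 in TG6 and 2.07 ± 0.20, 1.92 ± 0.05 and 2.34 ± 0.29 in F5. In OT-1 it was 1.99 ± 0.46, 1.59 ± 0.25 and 1.29 ± 0.16, so that the highest OT-1 mature library (1.43) lay below the lowest TG6 and F5 mature libraries (1.87 and 2.14). These ratios between lines carry the choice of the genes with them and were not tested.

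**Figure D4:**
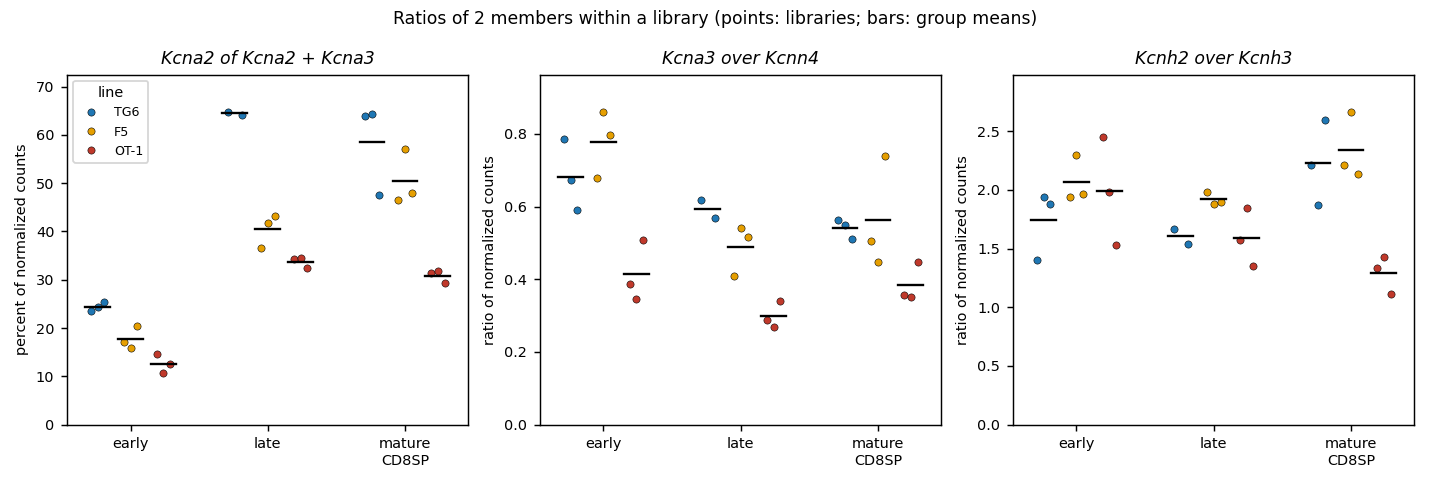
Ratios within each library by stage: the percent of *Kcna2* in *Kcna2* plus *Kcna3*, *Kcna3* over *Kcnn4*, and *Kcnh2* over *Kcnh3*, all in normalized counts on axes from 0, with 1 point per library and bars at group means. The *Kcna2* share has means of 12.6 to 24.4% in the early groups and 30.8 to 64.5% in the later groups.

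The rest of the potassium channel family was sparse in these cells. Of 88 other family genes in the table, 19 were at 0 in every library and 23 passed the filter. From early to mature CD8SP, 4 of the 23 rose and 2 fell in TG6, 4 rose and 0 fell in F5, and 3 rose and 2 fell in OT-1 (0 fell in F5 by limma; 7 of the 23 were at an unadjusted p under 0.05). Over all genes 19.4% rose and 15.2% fell in TG6, 10.8% and 8.79% in F5, and 12.8% and 10.5% in OT-1. The median log2 change of those above the floor was -0.26, 0.07 and 0.21, beside medians of -0.03, -0.01 and -0.01 over all genes. Requiring a mean of at least 50 left 1 call in each line.

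*Kcnc1*, which encodes the fast-gating channel Kv3.1, rose in each line. Its mean was 14.3 in TG6 early and 369.7 in TG6 mature CD8SP (log2 change 4.52 ± 0.42, adjusted p = 1.7e-08), 30.4 and 683.6 in F5 (4.46 ± 0.42, adjusted p = 7.9e-08), and 26.8 and 272.9 in OT-1 (3.28 ± 0.42, adjusted p = 4.7e-06). *Kcnip2*, which encodes a calcium-binding partner of Kv4 channels, rose from 8.27 to 62.2 in TG6 (2.71 ± 0.52, adjusted p = 0.00026), from 5.05 to 25.5 in F5 (2.47 ± 0.52, adjusted p = 0.0015) and from 14.8 to 57.4 in OT-1 (2.04 ± 0.52, adjusted p = 0.0061; 0.0536 without OT-1 early replicate 1). *Kcnk7*, a gene of the 2-pore family, rose from a mean of 2.00 to one of 28.2 in OT-1 (adjusted p = 0.0014) and from 1.63 to 16.1 in TG6 (adjusted p = 0.0028), and was at 3.24 and 6.64 in F5 (adjusted p = 0.35). *Kcnh4*, of the same family as *Kcnh3*, was at 2.31 in TG6 early and 21.9 in TG6 mature CD8SP and was called higher (adjusted p = 9.3e-05). It was at 6.18 and 14.9 in F5 (adjusted p = 0.03, lost under 6 of its 14 alternatives with adjusted p up to 0.245, among them the fits without F5 early replicate 2 or 3 and without F5 mature CD8SP replicate 1 or 3) and at 7.34 and 11.9 in OT-1 (adjusted p = 0.37). *Kcnab3*, another beta subunit gene, fell from 51.4 to 18.2 in TG6 (-1.45 ± 0.44, adjusted p = 0.014) and from 37.0 to 15.3 in OT-1 (-1.35 ± 0.44, adjusted p = 0.03), and was at 46.4 and 26.1 in F5 (adjusted p = 0.23). The TG6 fall was not called without TG6 early replicate 2 (adjusted p = 0.0576). The OT-1 fall was lost under 7 of its 14 alternatives, among them the fits without any 1 of the OT-1 early libraries and without OT-1 mature CD8SP replicate 1 or 3, with adjusted p from 0.0159 to 0.188.

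The 23 other genes are what is left of the family once the 7 genes are taken out, most of which were chosen because OT-1 and TG6 differed in them here, so the counts for that contrast are lowered by the choice and nothing is read from them. OT-1 against TG6 gave 1 call higher and 1 lower at the early stage, 0 higher and 1 lower at the late stage, and 0 in the mature CD8SP stage. Over all genes 15.4% were called higher and 12.4% lower in OT-1 at the early stage, 9.34% and 6.21% at the late stage, and 4.67% and 5.08% in mature CD8SP. At the mature stage 2 of the 23 were at an unadjusted p under 0.05 in limma. The called genes, named after their values were seen, were *Kcnh4*, higher in OT-1 early (7.34 against 2.31, adjusted p = 0.048, lost under 9 of its 13 alternatives with adjusted p from 0.0246 to 0.163), and *Kcnip3*, which encodes a Kv4 partner also known as a transcriptional repressor. *Kcnip3* was lower in OT-1 early (0.30 against 17.0, adjusted p = 1.8e-05) and late (2.82 against 20.1, adjusted p = 0.0072). The late count ranged from 0 to 4 over the other settings, and the call was lost without TG6 late replicate 1. The early count was 1 without any 1 of the TG6 early libraries or without OT-1 early replicate 1 or 2, and the mature count was 1 without TG6 mature CD8SP replicate 3.

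**Figure D5:**
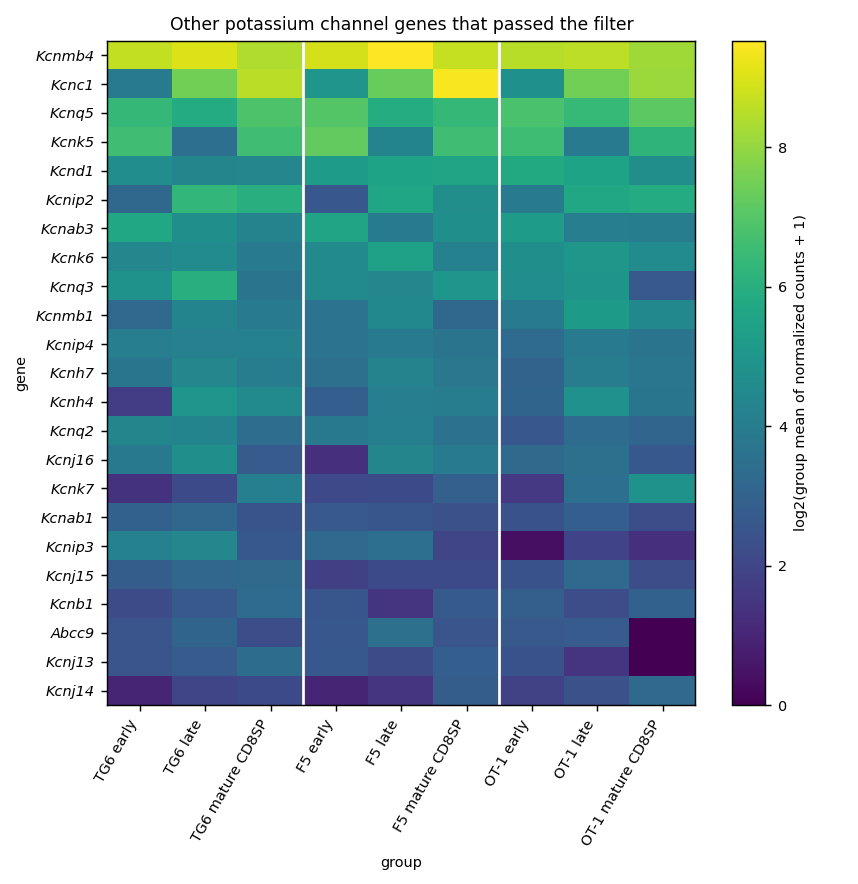
Group means of the 23 other potassium channel genes that passed the filter, as log2(mean of normalized counts + 1), with genes in rows sorted by their mean and the 9 groups in columns by line and stage. *Kcnc1* goes from 14.3 to 369.7 in TG6, and *Kcnmb4*, named after its values were seen, lies between 287.1 and 737.4 in all groups.

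Genes that act with the channels were listed as partners and pumps: enzymes and other proteins that act on Kv1.3 or KCa3.1, and the sodium-potassium pump and cation-chloride cotransporters that set the potassium gradient. The table held 29 of them, and 22 passed the filter. From early to mature CD8SP, 8 rose and 7 fell in TG6, 7 rose and 6 fell in F5, and 6 rose and 7 fell in OT-1. The shares over all genes were 19.4% and 15.2% in TG6, 10.8% and 8.79% in F5, and 12.8% and 10.5% in OT-1. The median log2 changes of the partners were -0.06, -0.10 and -0.15, beside -0.03, -0.01 and -0.01 over all genes. *Atp1b3*, a beta subunit gene of the sodium-potassium pump, rose in TG6, F5 and OT-1 by 1.86 ± 0.11, 1.73 ± 0.11 and 1.66 ± 0.11 (adjusted p at most 5.6e-10), and *Atp1b1* rose by 0.86 ± 0.18 in F5 (adjusted p = 0.0012) and 0.82 ± 0.18 in OT-1 (adjusted p = 0.0015), with 0.15 ± 0.18 in TG6 (adjusted p = 0.57).

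*Fxyd5*, which encodes a pump-associated membrane protein, went from 723.2 to 4762.7 in TG6, from 958.3 to 5051.5 in F5 and from 1147.8 to 5473.1 in OT-1 (log2 changes 2.68, 2.40 and 2.25, each ± 0.18, adjusted p at most 5.4e-09). *Fxyd7*, of the same family, also rose in each line, from 2.61 to 16.0 in TG6 (2.26 ± 0.41, adjusted p = 0.00013), from 3.56 to 23.8 in F5 (2.44 ± 0.41, adjusted p = 0.00013) and from 7.61 to 25.3 in OT-1 (1.71 ± 0.41, adjusted p = 0.0035). *Nme2*, a histidine kinase gene reported to activate KCa3.1, rose by 2.70 ± 0.21, 1.86 ± 0.21 and 1.85 ± 0.21 in TG6, F5 and OT-1 (adjusted p at most 1.2e-06), although reads can be split between it and near-identical copies. *Phpt1*, the opposing histidine phosphatase, changed by 0.02, 0.04 and -0.11 and was not called. *Slc12a5*, a potassium-chloride cotransporter gene, fell from 21.5 to 3.77 in OT-1 (-2.29 ± 0.80, adjusted p = 0.042), and was at 14.3 and 3.49 in TG6 (adjusted p = 0.28) and at 9.60 and 2.28 in F5 (adjusted p = 0.19). The OT-1 fall was lost under 8 of its 14 alternatives, the replicate block and the fits without OT-1 early replicate 1 or 2 and OT-1 mature CD8SP replicate 1 or 2 among them, with adjusted p from 0.0205 to 0.164.

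For each gene the most similar profiles were taken by Pearson r of log2(value + 1) over the 26 libraries, among 11010 genes with a mean of at least 50. Among the 3 closest were RP23-265F20.14 (0.950), *Tmie* (0.948) and *Als2cl* (0.924) for *Kcna2*, *AI504432* (0.896) and *0610030E20Rik* (0.890) for *Kcna3*, and *Malt1* (0.964), *Klf2* (0.957) and *Nfatc2* (0.956) for *Kcnab2*. For *Kcnn4* they were *Tbc1d22b* (0.918), *Etv3* (0.901) and *Mbp* (0.878). *Kcnh2* was closest to *Tmem191c* (0.941), *Fam98c* (0.935) and *Clcn6* (0.928), and *Kcnh3* had *Rnf111* (0.945) and *Baz2a* (0.936) among its 3 closest. For *Kcnd2*, whose profile separates TG6 from the rest, they were the receptor alpha variable segments *Trav6d-6* (0.998) and *Trav6-6* (0.998), whose reads can be split between near-identical copies, and *Gm13443* (0.995). The points share line, stage and normalization, and the correlations are a description.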

How the data were processed

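Total RNA of FACS-sorted thymocytes was sequenced in 26 libraries in 9 groups, taken from the labels. Per the submitters' notes and methods, Trimmomatic 0.32, Bowtie2 2.3.2 (mm10) and RSEM 1.2.31 were used, and the authors deposited normalized counts from the median-of-ratio method of DESeq2, a signal that is not whole reads. The reads behind each library cannot be worked out from these values, and no count model was run. The 7 genes and the gene lists were chosen with earlier results of these data known.

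Values were analysed as log2(value + 1) for genes at 10 or more in at least 2 libraries. The limma package 3.58.1 (R 4.3.3) was fitted with 9 group means and a prior variance that follows expression, with Benjamini-Hochberg adjustment over 16372 genes per comparison and calls under 0.05. The fit was tested on simulated data. The pseudocount of 1 makes changes of low genes too small. Levels between lines of the 7 genes were not tested. No fold is given for groups at or under a floor of 3. The paper calls the replicates of a group biological. The main fit treated the 26 libraries as independent, with 1 spread per gene over the 9 groups and 17 residual degrees of freedom. Its p-values measure that spread between libraries of a group and leave out any pairing of stages by mouse.

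The series text has the 3 populations sorted from each mouse, so replicate numbers were taken as mice. Deviations from group means of same-numbered libraries correlated at 0.106 to 0.34 in F5 (9 of 9 pairs over 0.1), 0.0189 to 0.178 in OT-1 (5 of 9) and 0.023 to 0.274 in TG6 (2 of 7). The titles of the TG6 late libraries have another form than those of the other TG6 libraries, and their 4 same-number pairs correlated at 0.023 to 0.0507, so pairing is not established there. The fit with the mouse as a replicate block was an alternative, beside quantile normalization, total scaling, a filter at a mean of 50 or none, a pseudocount of 5 or 0.1, no trend, a fit of only the groups compared, and leaving out each library.

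Named genes are the 7; from the other family genes, per line from early to mature CD8SP, the called genes with the 2 largest changes per direction and a higher group mean of at least 20; a few partners set by name, of which *Atp1b1*, *Atp1b3*, *Nme2* and *Phpt1* are reported, and called partners among the 2 largest changes per line; and the 3 most similar genes of each. Single-gene results of some genes that the rule names are not reported here. Positions are from GENCODE vM21 (GRCm38) and promoters from RefSeq (GRCm38.p6).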

Additional observations from a re-analysis of the deposited data

Results flagged for a closer look

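*Kcna3* and *Kcnh2* had opposite changes in different lines over the same interval, with no overlap of libraries between the stages in either line. How many of all genes do so was not counted. *Kcna3* was higher at the late than at the early stage in TG6 (log2 change 0.12) and lower in F5 (-0.23), and neither change was called (adjusted p = 0.75 and 0.38 in limma). TG6 late had 2 libraries, and in F5 the lowest early library held 1994.3 against 1993.5 in the highest late library. *Kcnh2* was higher in mature CD8SP than at the early stage in F5 (0.16, not called) and lower in OT-1 (-1.10, called). The difference between the lines was not tested in either case.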

How the results depend on the processing

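For the 7 genes, 39 of 57 stage changes kept their direction where called and their side of the threshold under every alternative run, and no called change reversed. The counts here include *Kcna2*. The number called from early to late in TG6 was 2, and it was 1 with no filter on low values and 1 with no trend in the prior variance, but 3 with a mean of at least 50, with quantile normalization, with the replicate block and with only the groups compared. In fits of only the groups compared it was 1 in place of 3 from late to mature CD8SP in TG6 and 2 in place of 4 in F5. Such fits have fewer residual degrees of freedom. With a replicate block by mouse, 5 changes were called that were not called without it: *Kcnab2* in TG6 early to late (0.296, where the labels do not establish the pairing), in F5 early to late (0.309) and in OT-1 late to mature CD8SP (0.329), *Kcna3* in F5 early to mature CD8SP (-0.441) and *Kcnh3* in OT-1 early to mature CD8SP (-0.493). The block changed no other call of the 7 genes, and the cause was not tested.

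With *Kcna2* counted, leaving out 1 library gave 1 to 3 called genes from early to late in TG6, 2 to 4 and 3 to 4 at its other intervals, 4, 3 to 4 and 2 to 3 in F5, and 3, 2 to 3 and 3 in OT-1. Genes without overlap numbered 6 to 7, 6 to 7 and 6 for OT-1 against TG6, 6, 5 and 4 to 5 for OT-1 against F5, and 4 to 6, 3 to 5 and 1 to 3 for F5 against TG6. The counts against TG6 hold *Kcnd2*, which passed the filter through TG6 alone. Shares of all genes called or without overlap are given above for the full set of libraries. For the other family genes the ranges were 4 to 7 in TG6, 3 to 4 in F5 and 3 to 5 in OT-1 from early to mature CD8SP (the 3 without OT-1 early replicate 1 or 3), and 1 to 2, 0 to 1 and 0 to 1 for OT-1 against TG6 at the early, late and mature CD8SP stages, a list from which most genes chosen on that contrast had been taken out. For partners and pumps they were 13 to 15, 9 to 13 and 10 to 12. A mean of at least 50, which leaves fewer genes to test, gave 1 family call in TG6, 1 in F5 and 1 in OT-1, and 0 for OT-1 against TG6 at the early and 0 at the late stage. The late count of 1 was 0 with a pseudocount of 0.1, 4 with no filter and 2 with total scaling, and the mature count of 0 was 1 with no filter. The deposited values do not hold whole reads, so no counting error is given for genes near 0.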
